A study of Mus musculus with 16 samples.

Results

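The 10 transcription factor genes described here are Pax5, Ebf1, Bach2, Erg, Foxp1, Runx1, Bcl11a, Myb, Sox4 and Bcl6, which take part in building or keeping the identity of B lineage cells. They were listed by name, with no threshold on their values but with earlier results of these data known, and all 10 were found among the 38918 features of each deposited table. The RNA came from pre-B cells of Blnk-/- mice, which carried a retrovirally delivered fusion of BLNK with ERt2, a modified hormone-binding domain of the oestrogen receptor that puts the activity of BLNK under the control of tamoxifen. Cells stimulated for 0.5, 1.5 and 5 h were set against control cells, and every group shared the Blnk-/- genotype and the construct. Whether control cells received the vehicle, whether the cells were 1 clone or came from pooled mice, and which library was made with which of the 2 named kits (TruSeq or NEBNext) are not stated. The 16 samples carry 4 lane names and a single index sequence per condition. They were therefore read as 4 lanes of 1 library each, an inference that the labels do not spell out, and lanes were summed.

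The pre-B cell receptor is made of a newly rearranged heavy chain and a stand-in for the light chain, and BLNK is the adaptor through which it signals. Early in the lineage Ebf1 and Pax5 switch on genes of the B cell programme, and Pax5 also silences genes of other lineages. Runx1, Myb, Sox4, Bcl11a, Foxp1 and Erg are needed at or before the pro-B and pre-B stages for survival or for recombination of the heavy chain locus, while Bach2 and Bcl6 are repressors that act around and after the pre-B cell receptor checkpoint.

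The 4 libraries held 30746189 (5 h) to 34533362 (control) total exon reads, with 7631791 to 8709054 in a lane. Levels are given as CPM, the reads of a gene per 1000000 total exon reads of its library. Reads outside exons are total gene reads minus total exon reads, on the same scale, and made up 15.8% (0.5 h) to 17.2% (5 h) of gene reads. There is no replicate check and no test, since each condition was read as a single library, so differences are given as folds with exact 95% Clopper-Pearson intervals that cover counting error only. A gene is counted as higher or lower when the 2 levels, each raised by 1 CPM, differ by 1.5-fold or more and the larger level is 5 CPM or above. In bulk RNA, fewer cells that express a gene and less of its RNA in each cell cannot be told apart. The 3 comparisons with control share the control library. All 13 markers of pre-B cells on the list were detected, summing to 15738 CPM at 0.5 h, 14525 CPM at 1.5 h and 13815 CPM at 5 h, against 16324 CPM in control. These sums include Blnk, at 3806, 3601 and 3533 CPM at the 3 times against 3516 CPM in control. The construct supplies a BLNK fusion to these Blnk-/- cells, so detection of Blnk says nothing on cell type. Most listed markers of other cells were under 1 CPM, but not all. Of 9 stromal markers none reached 1 CPM in any library, and of 10 T and NK cell markers Klrb1c alone did, at 13.8 to 19.6 CPM. Of 10 myeloid markers, 7 were under 1 CPM in every library, and Itgam was the highest, with 66.3, 58.5 and 35.9 CPM at 0.5, 1.5 and 5 h against 69.0 CPM in control. Of 10 erythroid and megakaryocyte markers, 7 or 8 were under 1 CPM and Hbb-bt was the highest, at 8.49 to 10.1 CPM. The part of these markers in the values below was not tested.

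Promoter sequences of the 3 members with the largest differences in exon reads are shown here, since the values below turn on these genes. Each is the 250 bases before a RefSeq transcription start (GRCm38.p6, which is the mm10 build of the files), written 5′ to 3′ on the strand of the gene. Capitals mark any match, on either strand, to the letters GTAAACA (FoxO), TGACTCA (AP-1), CACGTG (E-box), GTGGGCG (EGR core), CCGGAA (Ets) or TGTGGT (Runx). Bach2 is read from chr4:32417185-32417434 and Bcl11a from chr11:24080445-24080694, both on the plus strand. Each of these starts lies inside the longer gene of the files, so neither window is the sequence before the gene's 5′ end there. Erg is read from chr16:95586594-95586843 on the minus strand, the first of its 3 promoters.
Bach2: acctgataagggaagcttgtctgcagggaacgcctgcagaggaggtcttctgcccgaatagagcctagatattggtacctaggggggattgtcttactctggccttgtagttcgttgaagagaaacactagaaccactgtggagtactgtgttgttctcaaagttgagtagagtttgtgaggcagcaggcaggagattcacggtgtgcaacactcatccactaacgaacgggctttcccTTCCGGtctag
Erg: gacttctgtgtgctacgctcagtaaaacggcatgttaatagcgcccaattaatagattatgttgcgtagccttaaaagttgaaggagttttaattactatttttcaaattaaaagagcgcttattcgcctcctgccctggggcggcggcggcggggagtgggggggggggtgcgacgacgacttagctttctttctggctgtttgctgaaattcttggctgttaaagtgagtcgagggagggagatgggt
Bcl11a: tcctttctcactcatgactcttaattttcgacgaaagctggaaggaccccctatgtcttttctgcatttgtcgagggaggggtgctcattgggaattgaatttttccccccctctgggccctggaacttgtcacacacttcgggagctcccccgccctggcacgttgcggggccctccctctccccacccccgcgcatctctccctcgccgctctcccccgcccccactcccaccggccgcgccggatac
The Bach2 window holds an Ets match that begins 11 bases before the start, while the windows of Erg and Bcl11a hold none of the 6 motifs. GC content is 50.4% for Bach2, 48.8% for Erg and 62.0% for Bcl11a, beside a median of 52.4% over all promoters. RefSeq gave 17 promoters for the 10 genes. Of these 17, 3 held the Ets letters, 2 the E-box, 1 the EGR core, 1 the Runx letters, and 0 the FoxO or AP-1 letters. Among all 32851 promoters of the same length the shares were 12.0% for Ets, 6.02% for the E-box, 7.02% for the EGR core, 14.0% for Runx, 3.17% for FoxO and 4.46% for AP-1. Such a match is a run of letters and not a measured binding site.

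Per kilobase of exon, the scale on which genes can be compared, the order of the highest members depends on how multiply placed reads are counted. From all exon reads, Sox4 and Myb came first in the control library, at 131 and 127 CPM per kb with overlapping intervals (129 to 132 and 125 to 129), ahead of Erg at 91.9 and Pax5 at 84.6 CPM per kb. From uniquely placed exon reads alone, per 1000000 such reads, Erg came first at 109 CPM per kb (107 to 111), then Myb with an interval of 98.1 to 102, Pax5 at 95.6 (93.7 to 97.5) and Sox4 at 66.3 CPM per kb. The order of the next genes was the same by both counts, with Ebf1 at 42.2 and Runx1 at 27.5 CPM per kb of all exon reads. Foxp1 and Bach2 followed at 21.3 and 20.9 CPM per kb of all exon reads with overlapping intervals (20.9 to 21.7 and 20.4 to 21.4), and at 24.4 and 19.4 CPM per kb of unique reads. Bcl11a stood at 9.47 and Bcl6, the repressor best known from germinal centre B cells, at 2.44 CPM per kb of all exon reads. In unique reads they lay much closer, at 3.40 (3.21 to 3.59) and 2.90 CPM per kb (2.67 to 3.15). Bcl6 had the lowest value in every library by both counts, but in unique reads its interval overlapped that of Bcl11a at 0.5 h and 5 h.

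After stimulation the levels per kb were ordered differently. At 0.5 h Sox4 and Myb were highest in all exon reads, at 129 and 126 CPM per kb with overlapping intervals (126.9 to 130.4 and 124 to 128). Unique reads put Pax5 first at 0.5 h, at 137 CPM per kb, ahead of Erg at 116. At 1.5 h Myb was highest by both counts, at 159 CPM per kb of all exon reads and 127 of unique reads. Pax5 and Sox4 had 103 CPM per kb each in all exon reads, whereas unique reads gave 116 for Pax5 and 54.9 for Sox4. Erg was at 50.6 CPM per kb of all exon reads. At 5 h Myb and Sox4 had 164 and 162 CPM per kb of all exon reads with overlapping intervals (161 to 166 and 159.6 to 164), against 131 and 86.7 of unique reads. Pax5 also had 131 of unique reads at 5 h, with an interval (128 to 133) that overlapped that of Myb (129 to 134). Bach2 stood above Runx1 at 5 h from all exon reads (34.3 and 32.2 CPM per kb) and under it from unique reads (30.9 and 36.5).

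**Figure D1:**
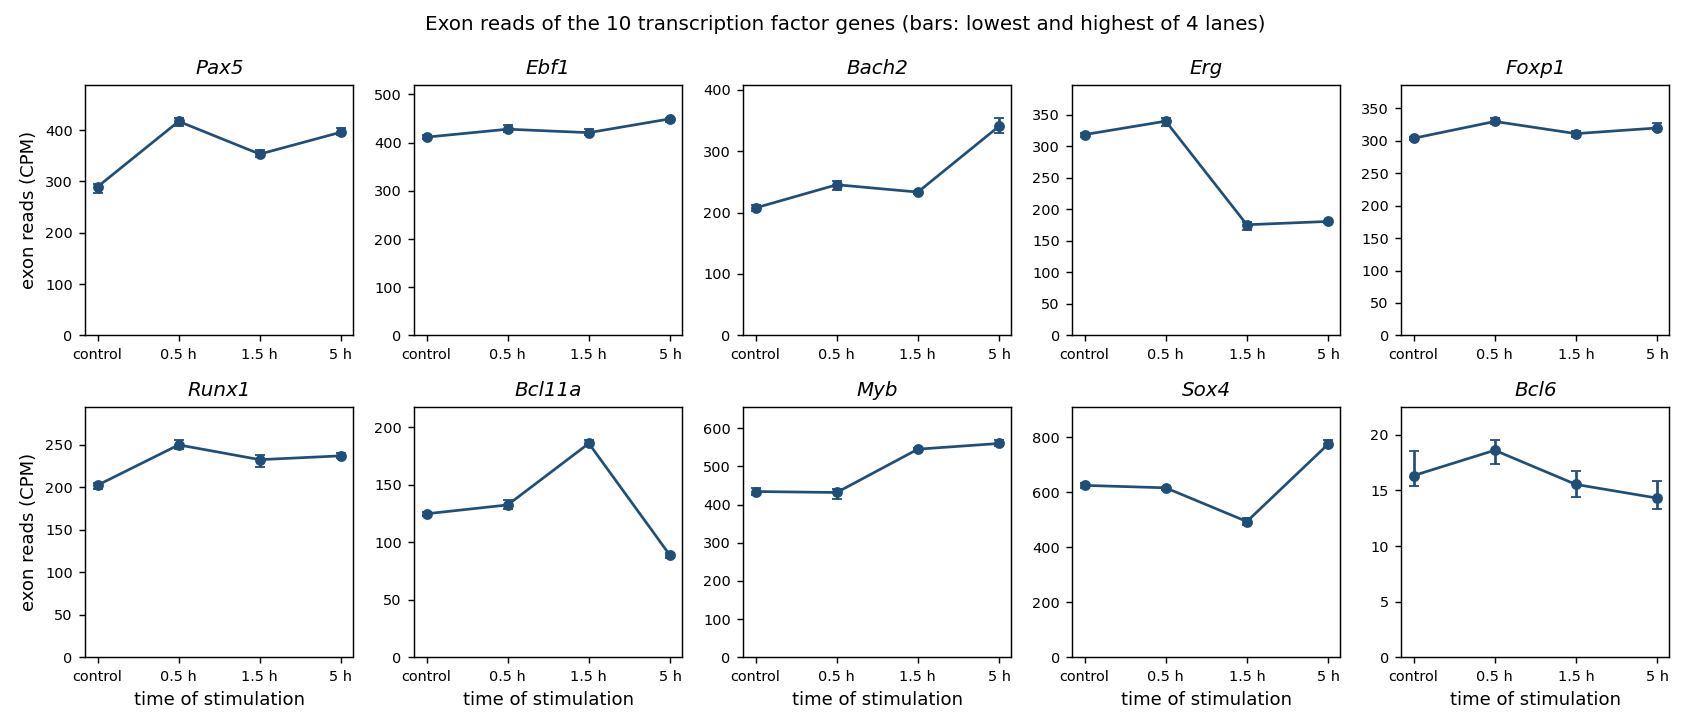
Exon reads (CPM, y axis from 0) of each of the 10 genes in the control library and at 0.5, 1.5 and 5 h. Points are the summed library and bars the lowest and highest of its 4 lanes, which show technical spread only; Erg is at 319 and 339.9 CPM at control and 0.5 h and at 176 and 181 CPM at 1.5 and 5 h, while Bach2 is highest at 5 h and Bcl11a at 1.5 h.

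Against control, 0 of the 10 genes were higher or lower by 1.5-fold at 0.5 h, where 0.82% of 9516 features with at least 5 CPM were. At 1.5 h 1 of 10 was (Erg, lower), beside 5.36% of 9512 features, and at 5 h 2 of 10 were (Bach2 higher, Erg lower), beside 5.19% of 9520 features. At 2-fold the count was 0 of 10 at each time, beside 0.305%, 0.852% and 0.735% of features at 0.5, 1.5 and 5 h. The median log2 ratio of the 10 genes was 0.11, 0.10 and 0.18 at the 3 times, with 8, 7 and 7 of 10 above 0. The median of all these features lay between −0.01 and 0.00 each time.

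**Figure D2:**
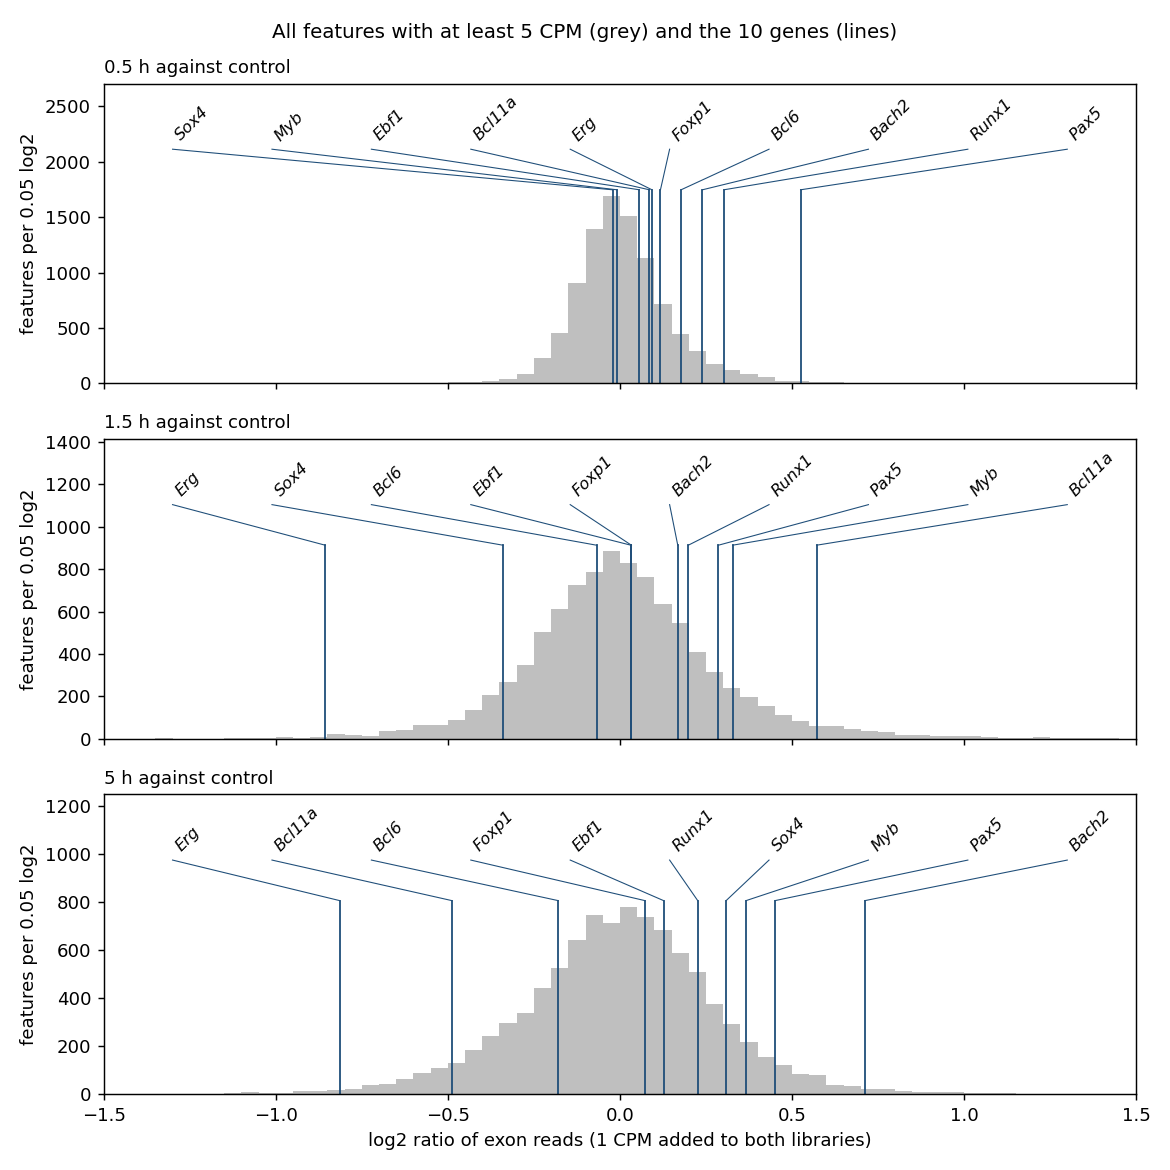
Number of features (y axis, per 0.05 log2) by log2 ratio of exon reads to control (x axis, 1 CPM added to both libraries), in grey for all features with at least 5 CPM, with the 10 genes as lines (features beyond 1.5 on either side are not drawn). Pax5 is the outermost line at 0.5 h, Erg and Bcl11a at 1.5 h, and Erg and Bach2 at 5 h.

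Pax5 and Ebf1, the factors that specify and commit B lineage cells, behaved differently from each other at 0.5 h. Pax5 (chromosome 4, 44531145 to 44711446, minus strand) encodes the paired-box factor that holds B cell commitment. It had 289.6 CPM in control, 417 at 0.5 h, 353 at 1.5 h and 396 at 5 h, so every stimulated library was above control and the 0.5 h library was the highest. The ratio at 0.5 h was 1.44-fold (1.40 to 1.48), and 0.788% of features had a ratio as high. At 1.5 h it was 1.22-fold (1.19 to 1.25) and at 5 h 1.37-fold (1.33 to 1.40), and 12.9% and 5.00% of features were as high. Reads that join 2 exons of Pax5 numbered 3007 at 0.5 h against 2235 in control, 1.37-fold (1.30 to 1.45) on the CPM scale. Reads outside its exons gave 1.15-fold at 0.5 h (1.12 to 1.18), 1.23-fold at 1.5 h and 1.28-fold at 5 h. The exon excess was thus the larger at 0.5 h and about equal to that outside exons at 1.5 h. Between 54.0% and 59.8% of Pax5 gene reads lay outside the exons of the files, the highest share among the 10 genes. The gene model of the files starts 6388 bases inside the 3′ end that GENCODE vM21 gives, so reads beyond it were not counted.

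Ebf1 (chromosome 11, 44617317 to 45008091, plus strand), an early B cell factor that acts upstream of Pax5, had 411 CPM in control, 428 at 0.5 h, 421 at 1.5 h and 449 at 5 h. Its largest ratio was 1.09-fold at 5 h (1.07 to 1.12), where 30.7% of features were as high. Outside exons it was 1.11 times lower at 0.5 h (1.05 to 1.16) and 1.26-fold higher at 5 h (1.20 to 1.32). Reads outside exons were higher at 5 h over most features, with a median log2 ratio of 0.17 over 6876 features (0.09 at 1.5 h and 0.00 at 0.5 h), and 23.2% had a ratio as high as that of Ebf1. Of the 2 features that carry this symbol, the one that spans the whole gene was used.

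Bach2 and Bcl6, both repressors with a BTB domain, differed in level and in direction at 5 h. Bach2 (chromosome 4, 32238804 to 32586108, plus strand) restrains plasma cell genes and acts at the pre-B cell receptor checkpoint in mice. It had 208 CPM in control, 245 at 0.5 h, 233 at 1.5 h and 340.5 at 5 h. Its lanes at 5 h had 329 to 355 CPM against 203 to 251 CPM over all other lanes, ranges that show technical spread only. Against control it was 1.64-fold higher at 5 h (1.59 to 1.69), and 1.19% of features were as high. The earlier times gave smaller folds, 1.18 at 0.5 h (1.14 to 1.22) and 1.12 at 1.5 h (1.09 to 1.16). The same 5 h comparison gave 1.60-fold (1.54 to 1.65) in uniquely placed exon reads and 1.91-fold (1.65 to 2.21) in reads that join exons, of which there were 491 against 289. Outside exons Bach2 was 1.58-fold higher at 5 h (1.49 to 1.68), with 91.6 against 57.9 CPM, and 2.44% of features were as high. Exon reads and reads outside exons thus gave folds of like size at 5 h. Between 74.8% and 77.9% of its exon reads were uniquely placed.

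Bcl6 (chromosome 16, 23965052 to 23988852, minus strand) had 16.3 CPM in control, 18.6 at 0.5 h, 15.5 at 1.5 h and 14.3 at 5 h, from 564, 630, 507 and 440 reads. With so few reads its ratios are the least precise of the 10: 1.14-fold higher at 0.5 h (1.02 to 1.28) and 1.14 times lower at 5 h (1.01 to 1.30). At 1.5 h a difference from control was not detectable at this depth (0.951-fold, 0.842 to 1.07). Reads outside its exons were 1.36-fold higher at 0.5 h (1.16 to 1.61), from 348 against 260 reads.

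Erg showed the largest difference from control among the 10 genes. It encodes an Ets-family factor that, with Pax5 and Ebf1, takes part in the pro-B cell programme in mice. Erg (chromosome 16, 95359169 to 95586593, minus strand) had 319 CPM in control, 339.9 at 0.5 h, 176 at 1.5 h and 181 at 5 h. Lanes at 1.5 and 5 h, at 168 to 182 CPM, did not overlap those at 0.5 h and in control, at 314 to 346 CPM, but lanes show technical spread only. At 0.5 h its ratio was 1.07-fold (1.04 to 1.10). At 1.5 h it was 1.81 times lower than in control (1.76 to 1.87), and 0.431% of features were as low. At 5 h it was 1.76 times lower (1.71 to 1.82), with 0.914% of features as low. Between 0.5 and 1.5 h it was 1.94 times lower (1.88 to 2.0), whereas 5 h and 1.5 h did not differ beyond counting error (1.03-fold, 0.992 to 1.07). Its exon reads were 100% uniquely placed to 3 digits in every library, and no annotated gene overlaps it.

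Reads of Erg outside exons were also fewer. They stood at 159.8 CPM at 0.5 h, 90.2 at 1.5 h and 118 at 5 h, against 162 CPM in control. That is 0.557-fold at 1.5 h (0.533 to 0.583), and at 5 h it is 0.728-fold (0.698 to 0.759), so at 1.5 h the size matched that of exon reads and at 5 h it was smaller. Between 1.5 and 5 h the reads outside exons were 1.31-fold higher (1.24 to 1.37), where the median log2 ratio of all features was 0.08 and 14.7% of features were as high. Reads that cross an exon border into an intron numbered 46 at 1.5 h and 65 at 5 h against 112 in control, which is 2.30 and 1.53 times lower on the CPM scale, with intervals of the ratio from 0.301 to 0.618 and from 0.473 to 0.893. Reads that join exons numbered 692 and 660 at the same times against 1315.

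**Figure D3:**
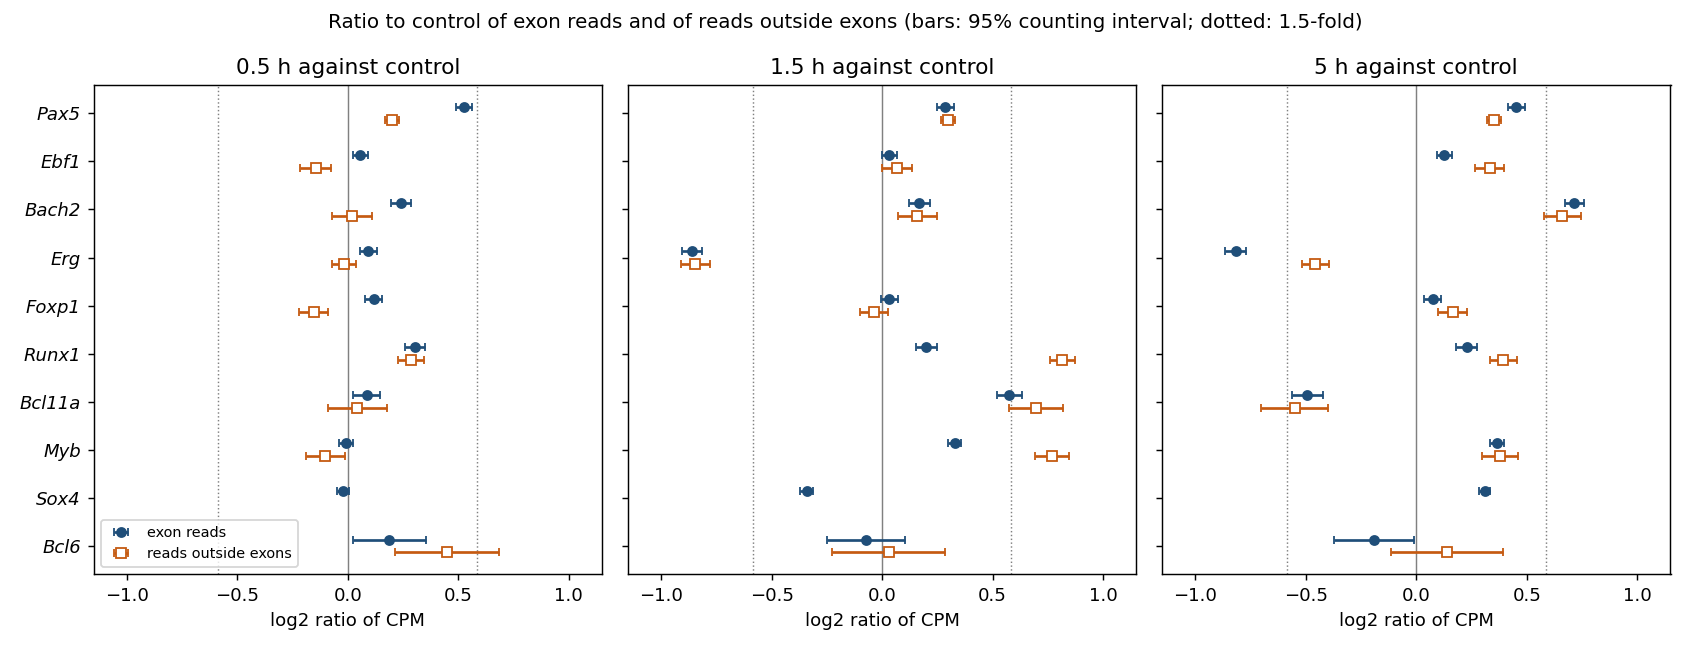
Log2 ratio of CPM to control (x axis) for exon reads (filled circles) and reads outside exons (open squares) of each gene at 0.5, 1.5 and 5 h; bars are 95% counting intervals and dotted lines mark 1.5-fold. Runx1, Bcl11a and Myb lie past 1.5-fold at 1.5 h outside exons only, with Bcl11a just under it in exons. Erg is below control in both kinds of read at 1.5 and 5 h, and Sox4 has no reads outside its single exon.

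Outside exons, 9 of the 10 genes could be measured, because Sox4 has a single exon. At 0.5 h 0 of the 9 were higher or lower by 1.5-fold, beside 2.53% of 6750 features. At 1.5 h Runx1, Bcl11a and Myb were higher and Erg lower, 3 and 1 of 9, beside 9.52% and 2.89% of 6880 features. At 5 h Bach2 alone was higher and 0 were lower, beside 3.77% and 0.713% of 6876 features. Scaled to the total of reads outside exons instead, which takes out the general excess at 5 h, Bach2 was short of the rule at a log2 ratio of 0.53, while Erg at −0.59 and Bcl11a at −0.68 were counted as lower. In uniquely placed reads outside exons, 45.6% to 53.5% of those of Bcl11a, its 5 h log2 ratio was −0.31.

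Runx1 and Myb, factors of blood stem cells and early lymphocytes, shared a larger difference outside exons than in exons at 1.5 h. Runx1 (chromosome 16, 92601467 to 92826066, minus strand), a DNA-binding subunit of the core binding factor, had 203 exon CPM in control, 249.9 at 0.5 h, 233 at 1.5 h and 237 at 5 h. Its exon ratio was highest at 0.5 h, 1.23-fold (1.20 to 1.27), where 3.94% of features were as high, and was 1.15-fold at 1.5 h and 1.17-fold at 5 h. Outside exons it had 118 CPM in control, 144 at 0.5 h, 208 at 1.5 h and 155 at 5 h. The 1.5 h library was thus the highest outside exons, at 1.76-fold (1.69 to 1.83) with 4.16% of features as high, against 1.22-fold at 0.5 h and 1.31-fold at 5 h. The share of Runx1 gene reads outside exons was 47.2% at 1.5 h, against 36.8% in control.

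Myb (chromosome 10, 21124930 to 21160984, minus strand), which pro-B cells need to survive and to pass to the pre-B stage in mice, had 434 exon CPM in control, 432 at 0.5 h, 545 at 1.5 h and 559.8 at 5 h. Control and 0.5 h did not differ beyond counting error (0.994-fold, 0.972 to 1.02), and the 2 later libraries were 1.26-fold (1.23 to 1.28) and 1.29-fold higher (1.26 to 1.32). Outside exons Myb had 65.5 CPM in control, 61.1 at 0.5 h, 112 at 1.5 h and 85.1 at 5 h. It was thus 1.70-fold higher at 1.5 h (1.61 to 1.79), while at 5 h the fold was 1.30 (1.23 to 1.38). Its reads outside exons were 1.31 times lower at 5 h than at 1.5 h (1.25 to 1.38), while its exon reads were 1.03-fold (1.01 to 1.05). Uniquely placed reads made up 65.6% to 67.9% of its exon reads and gave 1.27-fold at 1.5 h and 1.31-fold at 5 h.

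Bcl11a and Sox4 differed most between 1.5 and 5 h, and in opposite directions. Bcl11a (chromosome 11, 24078056 to 24174123, plus strand), a zinc finger repressor that B lymphocyte development requires, had 125 CPM in control, 132 at 0.5 h, 186 at 1.5 h and 88.7 at 5 h. It was therefore highest at 1.5 h and lowest at 5 h, with control and 0.5 h between. Against control it was 1.49-fold higher at 1.5 h (1.43 to 1.55) and 1.41 times lower at 5 h (1.34 to 1.48). The 1.5 h ratio lay just under the 1.5-fold rule at 0.57 on the log2 scale, and passed it at 0.59 with TMM factors, 0.59 with DESeq2 size factors and 0.64 in unique exon reads. Between 5 and 1.5 h it was 2.10 times lower (2.0 to 2.19), and 0.36% of features were as low. In that comparison 2 of the 10 genes passed 1.5-fold (Bcl11a lower, Sox4 higher), beside 3.42% of 9453 features, and Bcl11a alone passed 2-fold, beside 0.54%. Outside exons Bcl11a was 1.62-fold higher at 1.5 h (1.49 to 1.76) and 1.46 times lower at 5 h (1.32 to 1.63), and 6.80% and 1.0% of features were as high and as low.

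The size of these Bcl11a values is uncertain, because 29.7% to 35.7% of its exon reads were uniquely placed. Uniquely placed exon reads gave 1.57-fold at 1.5 h (1.46 to 1.68) and 1.19 times lower at 5 h, 0.837-fold (0.769 to 0.910). Reads that join exons gave 1.47-fold at 1.5 h (1.25 to 1.72). At 5 h they gave 0.941-fold (0.785 to 1.13), from 227 against 271 reads, so a difference from control was not detectable in them. Between 5 and 1.5 h the unique exon reads were 1.87 times lower and the reads that join exons gave 0.641-fold (0.541 to 0.757).

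Sox4 (chromosome 13, 28948919 to 28953713, minus strand), a high-mobility-group factor that supports pro-B cell survival in mice, had 626 CPM in control, 617 at 0.5 h, 494 at 1.5 h and 775 at 5 h. It was lowest at 1.5 h, 1.27 times lower than control (1.24 to 1.29), and highest at 5 h, 1.24-fold (1.22 to 1.26). Between 5 and 1.5 h it was 1.57-fold higher (1.54 to 1.60), and 0.857% of features were as high. Between 42.7% and 48.9% of its reads were uniquely placed. These gave 0.827-fold at 1.5 h (0.802 to 0.853), and at 5 h they gave 1.31-fold (1.27 to 1.34). At 0.5 h unique reads gave 1.12-fold (1.09 to 1.16). All exon reads gave 0.986-fold (0.967 to 1.005), which is no difference beyond counting error. Whether Sox4 was higher at 0.5 h thus depends on how multiply placed reads are counted. The lincRNA Gm26735 overlaps it on the other strand, at 1.29 to 1.98 CPM; whether counting used strand is not given in the sources used here.

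**Figure D4:**
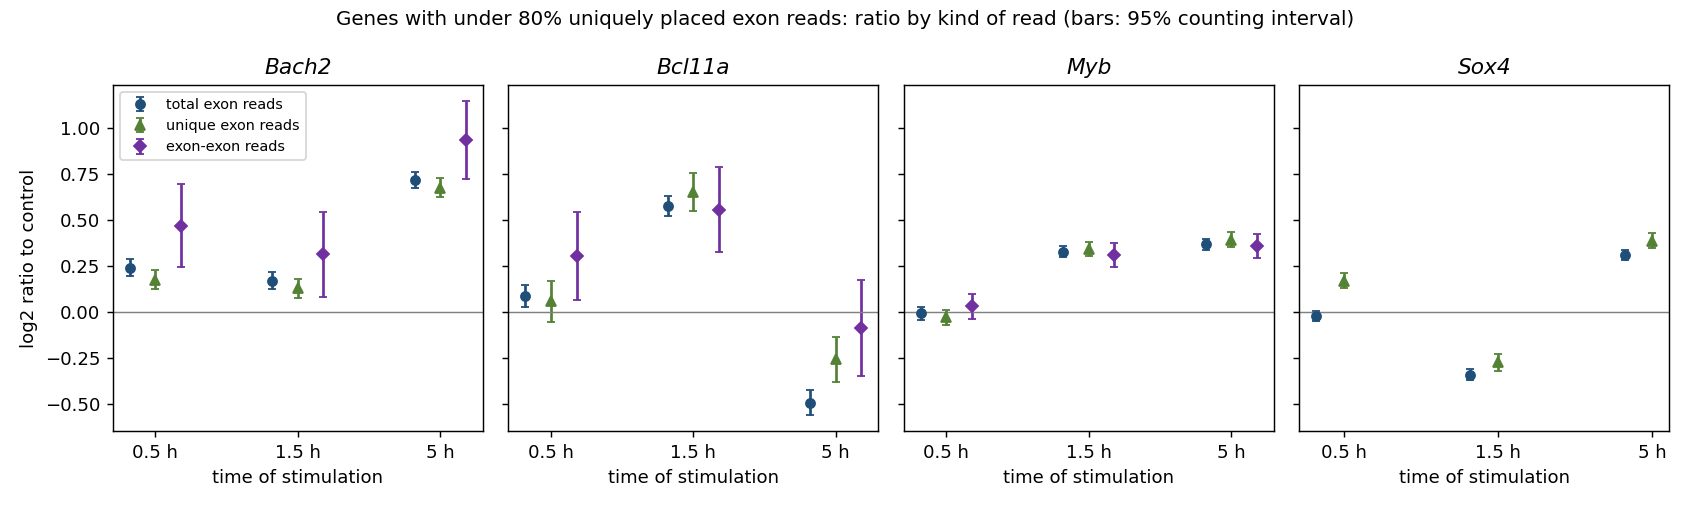
Log2 ratio to control (y axis) at 0.5, 1.5 and 5 h for the 4 genes with under 80% uniquely placed exon reads, from all exon reads (circles), unique exon reads (triangles) and reads that join exons (diamonds, none for Sox4); bars are 95% counting intervals. Bach2 and Myb keep their direction at 1.5 and 5 h in every kind of read, and the 5 h ratio of Bcl11a lies nearer to 0 in unique and joining reads. The 0.5 h ratio of Sox4 lies above 0 in unique reads, while its interval in all exon reads spans 0.

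Foxp1 (chromosome 6, 98925338 to 99522721, minus strand), a forkhead factor that takes part in expression of the recombinase genes in mouse pro-B cells, stayed close to control, with 304 CPM in control, 329.8 at 0.5 h, 311 at 1.5 h and 319.7 at 5 h. Its largest ratio was 1.09-fold at 0.5 h (1.06 to 1.11), where 18.1% of features were as high, and outside exons it lay between 0.899-fold and 1.12-fold. Gm20696, a protein-coding gene that overlaps it on the same strand, had 4.81 to 6.20 CPM. Over the 4 libraries the highest exon level was 1.09 times the lowest for both Foxp1 and Ebf1. It was 1.23 times the lowest for Runx1, 1.30 for Myb and Bcl6, 1.44 for Pax5, 1.57 for Sox4, 1.64 for Bach2, 1.94 for Erg and 2.10 for Bcl11a. In uniquely placed exon reads Bcl11a was 1.87 times lower at 5 h than at 1.5 h. Erg was 1.94 times lower at 1.5 h than at 0.5 h in such reads. The order of Bcl11a and Erg thus depends on how multiply placed reads are counted.

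By distance over the 3 log2 ratios to control, among 9589 features with at least 5 CPM and with predicted genes left out, the 5 genes nearest to Bach2 were Nlrc5, Slc9a7, Slc25a26, Jmy and Adarb1. Their log2 ratios were 0.14 to 0.30 at 0.5 h, 0.07 to 0.26 at 1.5 h and 0.60 to 0.76 at 5 h, beside 0.24, 0.17 and 0.71 for Bach2. Those nearest to Erg were Socs3, Fam222a, Thbs2, S1pr1 and Gadd45a, all with levels of 3.31 to 16.7 CPM, far under that of Erg. Their log2 ratios were −0.15 to 0.24 at 0.5 h, −0.98 to −0.70 at 1.5 h and −0.88 to −0.59 at 5 h. For Erg the 3 values were 0.09, −0.86 and −0.81. Such likenesses, to Bach2 and to Erg, rest on 3 values that share 1 control library. At the low levels of the genes near Erg, the 1 CPM added to both libraries shrinks a ratio more than it does that of Erg.

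Other genes of the network were read from lists. Of 25 family members of the 10 genes, 6 had at least 1 CPM: Bach1, Fli1, Foxp4, Runx3, Mybl1 and Mybl2. For each of the others, such as Pax6, Ebf2, Runx2, Bcl11b and Sox11, the library levels were under 1 CPM. None of the 6 passed 1.5-fold at any time, beside 0.82%, 5.36% and 5.19% of all features at 0.5, 1.5 and 5 h. Fli1, the Ets factor closest to Erg, had 142, 145 and 159 CPM at 0.5, 1.5 and 5 h against 132 CPM in control, up to 1.20-fold at 5 h (1.16 to 1.25), where Erg was lower. Runx3 was 1.26-fold higher at 1.5 h (1.21 to 1.31). Of 13 cofactors, 12 were measured at 0.5 h and 11 at the later times. Of these 0 were past 1.5-fold, beside the same shares of all features, and the median log2 ratios were 0.18, 0.26 and 0.11. Among them Mafk, a small Maf protein that binds DNA together with Bach2, was 1.36-fold higher at 0.5 h (1.28 to 1.44). At 1.5 h the fold was 1.51 (1.42 to 1.60), which falls short of the 1.5-fold rule once 1 CPM is added. Ep300, a coactivator of Myb, was 1.25-fold higher at 0.5 h (1.21 to 1.29).

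Among 22 measured other transcription factors of the B lineage, 1, 3 and 4 were higher by 1.5-fold at 0.5, 1.5 and 5 h and 0, 1 and 1 were lower, with median log2 ratios of 0.10, 0.09 and 0.14. These shares stand beside 0.673%, 3.37% and 2.21% of features higher and 0.147%, 1.99% and 2.98% lower. Irf4, a factor of light chain recombination and of plasma cells, had 239, 445 and 347 CPM at 0.5, 1.5 and 5 h against 142 CPM in control, a fold of up to 3.12 at 1.5 h (3.03 to 3.23). Ikzf3 (Aiolos) was 2.02-fold higher at 5 h (1.94 to 2.10), and Spib was 2.41 times lower (2.23 to 2.62). Each of these ratios was larger than any of the 10 genes showed against control.

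**Figure D5:**
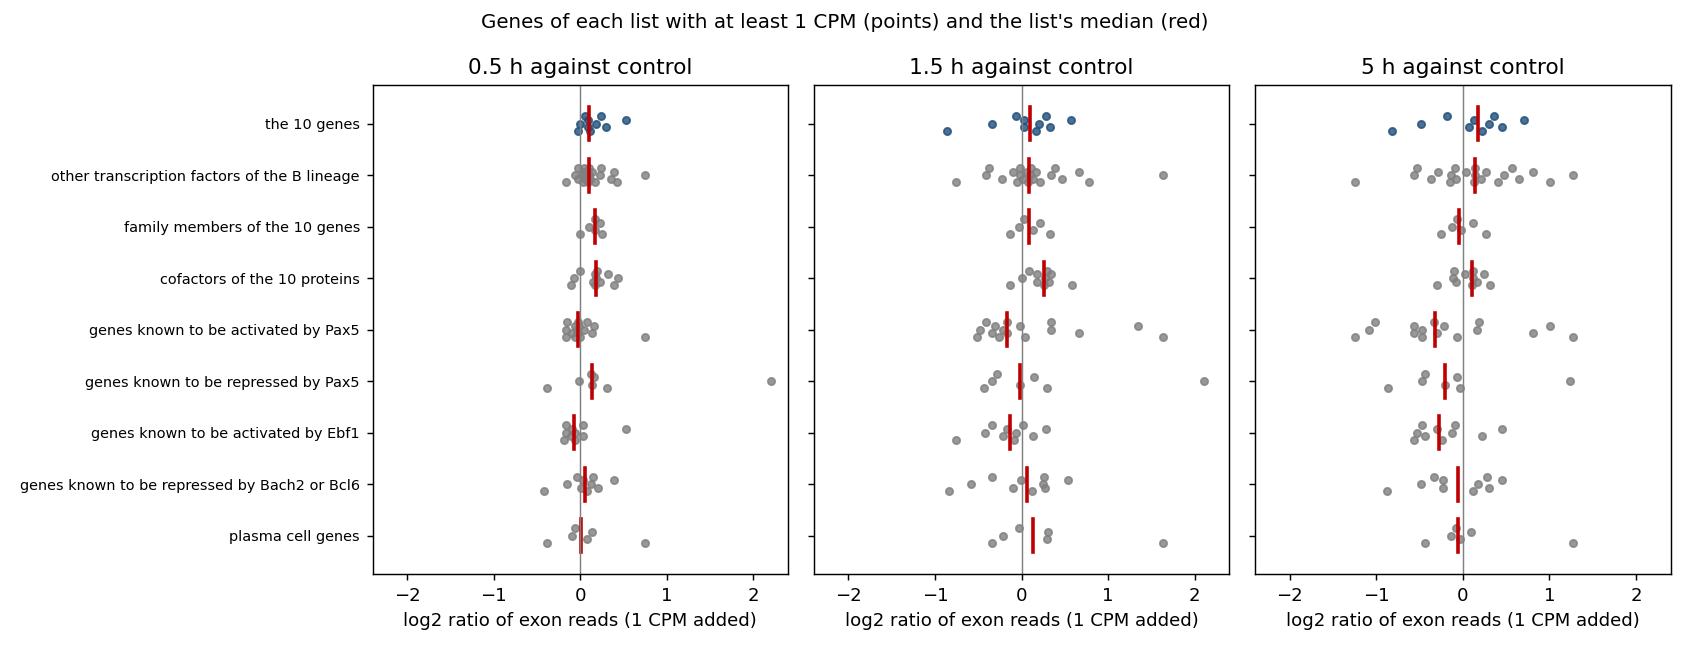
Log2 ratio of exon reads to control (x axis, 1 CPM added) at 0.5, 1.5 and 5 h for every gene with at least 1 CPM in the 10-gene group and in 8 other lists; red marks show each list's median. The medians of the genes known to be activated by Pax5 or by Ebf1 lie below 0 at 1.5 and 5 h, and single genes such as Irf4 lie far from them.

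Known target genes of these factors lay on both sides of control. Of 16 measured genes known to be activated by Pax5, 6, 6 and 5 had a ratio above 0 at 0.5, 1.5 and 5 h, with medians of −0.03, −0.17 and −0.32 on the log2 scale. At 5 h 3 of them were higher by 1.5-fold and 3 lower, beside 2.21% and 2.98% of all features. Cplx2 (2.21 times lower, 1.95 to 2.50), Bst1 and Spib were the lower ones, and Irf4, Ikzf3 and Lef1 were the higher ones, which also stand in the list of other factors. Bcar3 was 2.55-fold higher at 1.5 h (2.47 to 2.63), but 1.12-fold at 5 h. Genes that Pax5 is known to repress had medians of 0.14, −0.01 and −0.21 over 7 measured. Ccl3, a chemokine of myeloid cells and activated lymphocytes, had 8.39, 7.81 and 3.81 CPM against 1.04 CPM in control. Notch1 was 1.24-fold higher at 0.5 h (1.18 to 1.30) and 1.39 times lower at 5 h (1.31 to 1.48).

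Of 10 measured genes known to be activated by Ebf1, which include Pax5, 2 had a ratio above 0 at 5 h, and the median was −0.27. Cd79a, a signalling chain of the receptor, had 1674 CPM at 0.5 h, 1407 at 1.5 h and 1206 at 5 h against 1783 CPM in control, 1.48 times lower at 5 h (1.46 to 1.50), while the Ebf1 level was 1.09-fold. Foxo1, a forkhead factor of recombinase expression, was 1.70 times lower at 1.5 h (1.63 to 1.77) and the single gene of this list past 1.5-fold. At that time 1.99% of all features were lower by 1.5-fold. Pre-B cell marker genes as a list were lower too, with medians of −0.11, −0.26 and −0.25, and part of them stand in the Pax5 and Ebf1 lists.

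Of 15 genes known to be repressed by Bach2 or Bcl6, 10 were measured, with medians of 0.05, 0.06 and −0.05 and 5 of 10 above 0 at 5 h. Cdkn1a was the single measured gene of the list under 5 CPM in both libraries. Without it the median was −0.003 at 1.5 h, the value of Atr, and 0.12 at 5 h. Prdm1, the plasma cell regulator that Bach2 and Bcl6 both repress, had 0.0295, 0.123 and 0.0325 CPM at 0.5, 1.5 and 5 h against 0.145 CPM in control, all within the range of a few reads. S1pr1 was 2.07 times lower at 5 h (1.65 to 2.62), and Cdkn1b was 1.51 times lower at 1.5 h (1.45 to 1.57), with a fold of 1.09 at 5 h. Of 9 plasma cell genes found, 6 were measured and 1 passed 1.5-fold at each time, Irf4, beside 0.82%, 5.36% and 5.19% of all features. Xbp1 was 1.24-fold higher at 1.5 h (1.11 to 1.37), and at 5 h the fold was 0.978 (0.875 to 1.09).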

How the data were processed

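RNA of pre-B cells was selected for poly(A) and sequenced on an Illumina HiSeq system, per the labels' protocols. The submitters' processing notes name CASAVA 1.8.2 and the build mm10; which aligner and counting program were used, and on which strand, is not given in the sources used here. Deposited values are raw counts for every gene in each lane, per the file headers: exon reads and gene reads (all and uniquely placed), reads joining exons and reads crossing from exon to intron, beside the exon length of each gene. The 3 tables list 38918 features each, all 64 comparisons of a control column between tables gave identical values, and 0 columns belonged to other samples. RPKM columns and the authors' fold changes were not used.

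The 4 samples of a condition, read as lanes, were summed to 1 library. Exon counts were divided by total exon reads to give CPM, and reads outside exons are total gene minus total exon reads on the same scale. Log2 ratios were taken after adding 1 CPM to both libraries, while printed folds have nothing added and carry exact 95% Clopper-Pearson intervals from the split of the reads of both libraries. Levels per kb carry exact 95% Poisson intervals of the read count in 1 library. Reads carry no molecular identifiers, so intervals cover counting error only; a count of 0 allows up to 3 reads. There were 3 comparisons with control, and 1.5 h was also set against 0.5 h and 5 h against 1.5 h. No test across conditions was possible with 1 library each. A listed gene was taken as measured from 1 CPM in the higher of the libraries compared.

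The 10 genes and the gene lists, which come from general knowledge of B cell development, were chosen with earlier results of these data known. The rule for named genes took all 10 genes in every library, up to 4 measured genes of each other list with the largest log2 ratio at any time, and the 5 genes nearest to the member with the largest ratio above and below control. Not all of these are printed, and other names in lists were chosen after their values were seen. Promoters came from RefSeq (GRCm38.p6) and were matched by symbol for 10 of 10 genes; gene positions were compared with GENCODE vM21.

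The ratio and interval code was tested on simulated data. Alternatives were TMM factors (edgeR 4.0.16), DESeq2 1.42.0 size factors, pseudocounts of 0.1 and 5 CPM, other floors, unique reads, total gene reads, each lane left out and lanes as blocks. Python 3.11.15, pandas 2.3.3, numpy 2.4.6, scipy 1.17.1, matplotlib 3.10.9 and R 4.3.3 were used.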

Additional observations from a re-analysis of the deposited data

How the results depend on the processing

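The count of the 10 genes past 1.5-fold at 1.5 h was 1 in the values reported and 2 with TMM factors, with DESeq2 size factors, in unique exon reads and in total gene reads, in each case through Bcl11a. At 0.5 h and 5 h it was 0 and 2 under every alternative run, and leaving out each lane in turn gave 0 to 0, 1 to 1 and 2 to 2 at the 3 times. Lanes carry the same numbers in every condition, and with the lane as replicate block the counts were 0, 1 and 2, with a largest shift of 0.00200 in any exon log2 ratio; lanes were read as runs of 1 library, so this is no pairing of samples. Among 30 exon ratios, the sign changed for Sox4 at 0.5 h in unique exon reads (0.17 against −0.02) and for Myb at 0.5 h without the third lane (0.02 against −0.01). Among 27 ratios outside exons, signs changed for Bcl6 at 1.5 h and Bach2 at 0.5 h, both near 0, and without the fourth lane Bcl11a at 5 h passed 1.5-fold (−0.59), against −0.53 as reported and −0.31 in unique reads. Pseudocounts of 0.1 and 5 CPM changed no sign and no count. Of 39 list medians, 5 changed sign when genes under 5 CPM in both libraries were left out. Among them were those of the genes repressed by Bach2 or Bcl6 at 1.5 and 5 h. Levels per kb from unique exon reads, an alternative chosen after seeing the data, changed the order of Sox4, Myb, Erg and Pax5. The depth limits Bcl6 most, and reads of several placements limit Bcl11a, Sox4, Myb and Bach2.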
